A study of Triticum aestivum with 8 samples.

Results

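The leaf response to water withholding that 2 bread wheat (Triticum aestivum) cultivars have in common was measured as one drought effect over both, with cultivar kept as a block. All 8 arrays of the series entered this comparison. The 4 drought arrays, 2 each of WL711 and C306, were set against the 4 control arrays, 2 each of the same cultivars. The model was additive, so a drought effect that differs between cultivars went into its error. Every sample was leaf of plants labelled as 48 days old. Control plants were watered, and drought plants received no water from day 27, which made 21 days without water. Replicates were labelled biological, and the labels used here do not say how many plants made up a sample.

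Signal was measured on Affymetrix wheat arrays as log2 values, each centred on the median of its probe set over the 8 arrays. A probe set is the group of short probes that reads 1 transcript or a few like ones. Centred values show how arrays differ and carry no level, so the labelled tissue could not be checked against leaf marker levels. Of 61290 probe sets, the 111 Affymetrix controls were left out and 61179 were tested. The platform annotation gave a gene for 1273 of these, which stood for 771 genes, and 102 genes had a name other than a LOC number. For a gene with several probe sets, the plain one stood for it. Probe sets without a gene are described by their rank. The pooled log2 change below is drought minus control with cultivar as a block, and arrays are given in the order replicate 1, replicate 2. Arrays of whole leaves cannot tell fewer cells of a type from less RNA per cell.

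Plants that dry out close their stomata, accumulate abscisic acid and adjust their osmotic balance. Transcripts of dehydrins and other late embryogenesis abundant (LEA) proteins, which protect membranes and proteins in drying cells, are known to accumulate. Transcripts for photosynthesis, cell division and expansion growth are often lowered in leaves under lasting water deficit.

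No probe set passed the test of a drought effect common to both cultivars. With limma over the 8 arrays, 0 of 61179 probe sets (0%) had a Benjamini-Hochberg adjusted p under 0.05, and the smallest adjusted p was 0.453. At an unadjusted p under 0.05 there were 5600 probe sets (9.15%), of which 2945 (4.81%) were higher and 2655 (4.34%) lower under drought. The median absolute pooled change was 0.12 on the log2 scale, 99% of probe sets were within 0.86, and the median SE was 0.13. The 95% interval of a pooled change had a median half-width of 0.30. The count past the threshold was also 0 with each array left out in turn.

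**Figure D1:**
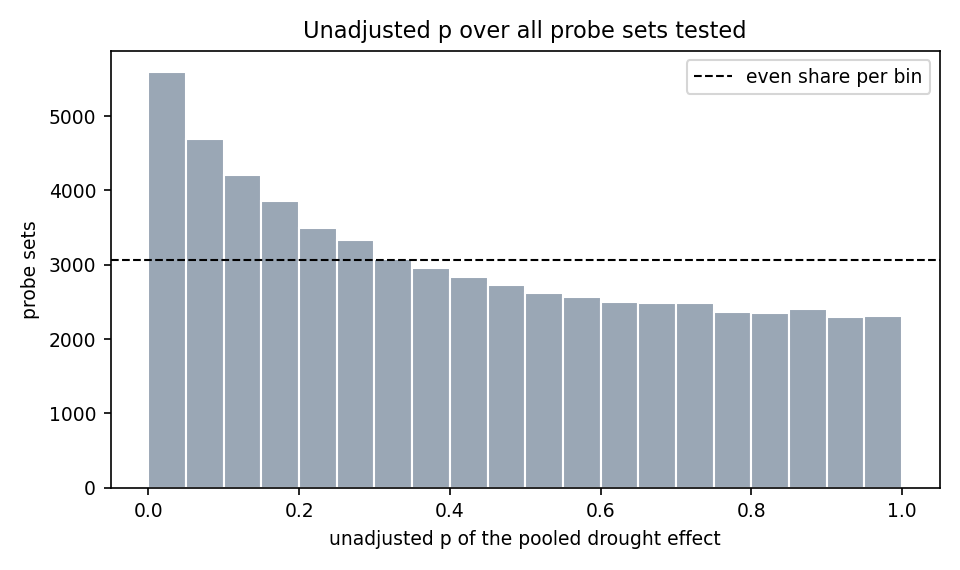
Number of probe sets (vertical axis) in bins of the unadjusted p of the pooled drought effect (horizontal axis), over all 61179 probe sets. The first bin holds 5600 probe sets against an even share of 3059 (dashed line).

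Arrays differed first by cultivar. The first principal component held 57.5% of the variance and parted WL711 from C306. On the second, with 12.7%, WL711 scored 49.8 and -6.87 with water and -9.97 and -27.3 without. C306 went the other way, from -54.3 and -15.0 with water to 31.2 and 32.4 without. On the third, with 11.4%, the 4 drought arrays scored 8.49 to 40.4 and the 4 control arrays -49.5 to 1.79. The control replicates stood at -44.7 and -8.36 there in WL711, and at -49.5 and 1.79 in C306. Mean hybridisation control signal was -0.98 to -0.72 on WL711 control replicate 1, C306 control replicate 2 and C306 drought replicate 1, and at least 0.022 elsewhere. Actin control probe sets, read as 3' minus 5' centred signal, stood at -0.35 to -0.022 on drought arrays and at -0.11 to 0.42 on control arrays, and they overlapped in C306. Those of GAPDH overlapped, at -0.11 to 0.10 on drought arrays and -0.091 to 0.20 on control arrays. WL711 control replicate 1 had the widest spread, with an interquartile range of 0.48 against 0.22 to 0.30 on the other arrays. Its mean signal of the poly-A controls was also the lowest, at -0.71. The part of hybridisation and RNA quality in the values below was not tested beyond the block described with the processing alternatives.

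The probe sets with the smallest p are described first. The additive model counts a drought effect that differs between cultivars as error. A small p therefore favours like shifts in both cultivars, and their likeness is no finding. The one with the smallest p has no gene in the annotation and went from -0.88 and -1.0 with water to -0.058 and 0.058 without in WL711, and from -0.089 and 0.18 to 1.3 and 0.92 in C306. Both drought arrays lay above both control arrays in each cultivar, with a pooled change of 1.0 (SE 0.12, unadjusted p = 1.67e-05, limma adjusted p = 0.453). Its change was 0.94 in WL711 and 1.06 in C306.

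The probe set with the third smallest p, also without a gene, had the largest pooled change among the 10 smallest p, at 1.62 (SE 0.23). Its arrays went from -1.87 and -2.15 with water to -0.64 and -0.15 without in WL711, and from 0.15 and 1.03 to 1.87 and 2.55 in C306. The change was 1.62 in either cultivar, and watered and droughted arrays did not overlap within a cultivar. The second stood at 0.91 (SE 0.12) and the fourth at 0.76 (SE 0.11), both likewise apart from control in both cultivars. These 4 shared the adjusted p of 0.453. Of the 10 smallest p, 6 belonged to probe sets higher under drought and 4 to lower ones.

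The smallest p among the lower ones was that of a probe set without a gene, which went from 1.19 and 1.28 with water to 0.22 and -0.0027 without in WL711, and from -0.42 and 0.0027 to -0.86 and -1.04 in C306. Both drought arrays lay below both control arrays of their cultivar, with a pooled change of -0.93 (SE 0.14). Next came a probe set of LOC606366 at -0.78 (SE 0.12), the only one of the 10 with a gene.

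**Figure D2:**
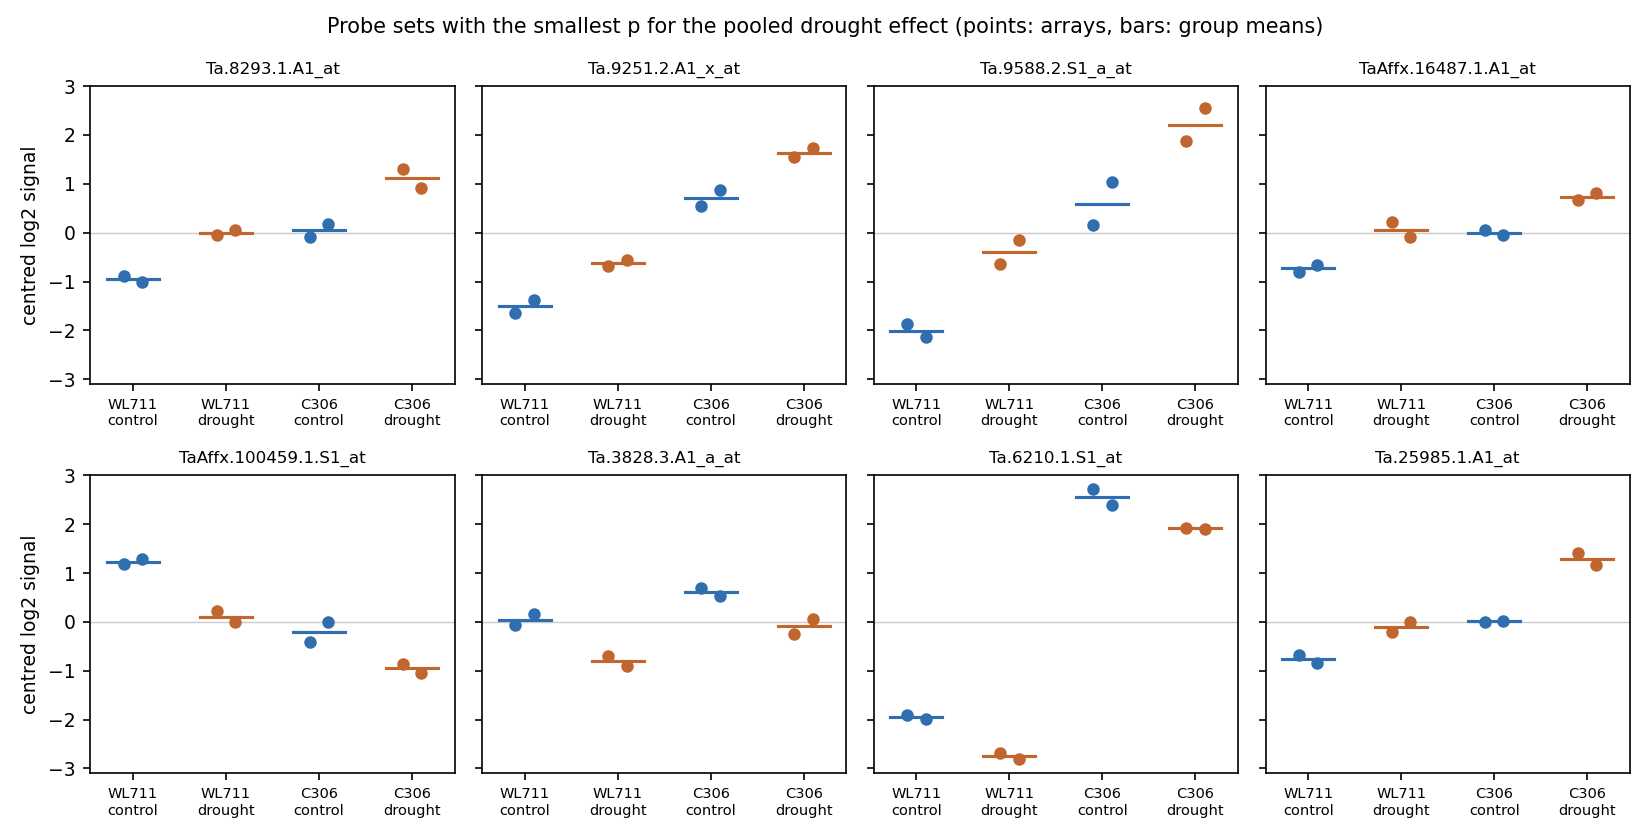
Centred log2 signal (vertical axis) by group (horizontal axis) for the 8 probe sets with the smallest p of the pooled drought effect, titled by their identifiers, with each array as a point. In all 8 panels the drought arrays lie on the same side of the control arrays in both cultivars.

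Large pooled changes were mostly increases. There were 414 probe sets with a pooled change of at least 1 in size, 321 higher and 93 lower, and 273 without C306 control replicate 1. A further round of quantile normalization left 204 higher and 125 lower. The largest pooled change, of a probe set without a gene, was 3.96 (SE 1.40, limma adjusted p = 0.492). It went from 0.76 and -1.61 with water to 6.46 and -1.06 without in WL711, and from -0.76 and -1.08 to 5.12 and 2.63 in C306. WL711 drought replicate 2 lay within the range of WL711 control, while the C306 groups were apart. The largest decrease, -2.60 (SE 0.83, adjusted p = 0.477), was -5.06 in WL711 and -0.15 in C306.

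Drought arrays lay above the control arrays in both cultivars for 4.36% of all probe sets and below for 4.8%. A choice by pooled change favours arrays that lie apart, so counts among the 414 describe them only. Of the 414, 99 higher and 24 lower probe sets had drought arrays beyond the control arrays in both cultivars. The highest of these stood at 2.83 (SE 0.75, limma adjusted p = 0.453) and went from -1.59 and -3.54 with water to 2.50 and 0.18 without in WL711, and from -2.34 and -0.063 to 1.07 and 0.063 in C306. Its control replicates differed by over a log2 unit in each cultivar. The fourth highest, at 2.57 (SE 0.58), was more even, with 2.28 in WL711 and 2.87 in C306. The lowest stood at -2.10 (SE 0.55), with -0.56 in WL711 and -3.63 in C306. None of the 6 highest and 6 lowest had a gene in the annotation.

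Agreement between the cultivars was counted next, since a common effect needs both. In 5606 probe sets (9.16%) both drought arrays lay beyond both control arrays in the same direction in WL711 and C306, 2667 higher (4.36%) and 2939 lower (4.8%). In opposite directions there were 4630 (7.57%). With arrays shifted to one median the split was 3049 higher and 2572 lower, so which direction was the more frequent turned with the scaling. Signs were the same in both cultivars for 32412 probe sets (53%). The drought effects differed between cultivars, with an adjusted p under 0.05, for 25 probe sets (0.0409%), and 21 of these had opposite signs. A choice by a large difference favours opposite signs, so the 21 describe that choice only.

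Calls within a single cultivar rest on the same arrays as the pooled effect. Of 22 probe sets past the threshold in WL711 (0.036%), 7 had the same sign in C306. Of 30 past it in C306 (0.049%), 15 had the same sign in WL711. Among these 52 calls, 33 had an unadjusted pooled p under 0.05 (9.15% over all probe sets), the smallest being 0.000433. A large effect in a single cultivar enters the pooled change too, so that count describes the choice only.

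**Figure D3:**
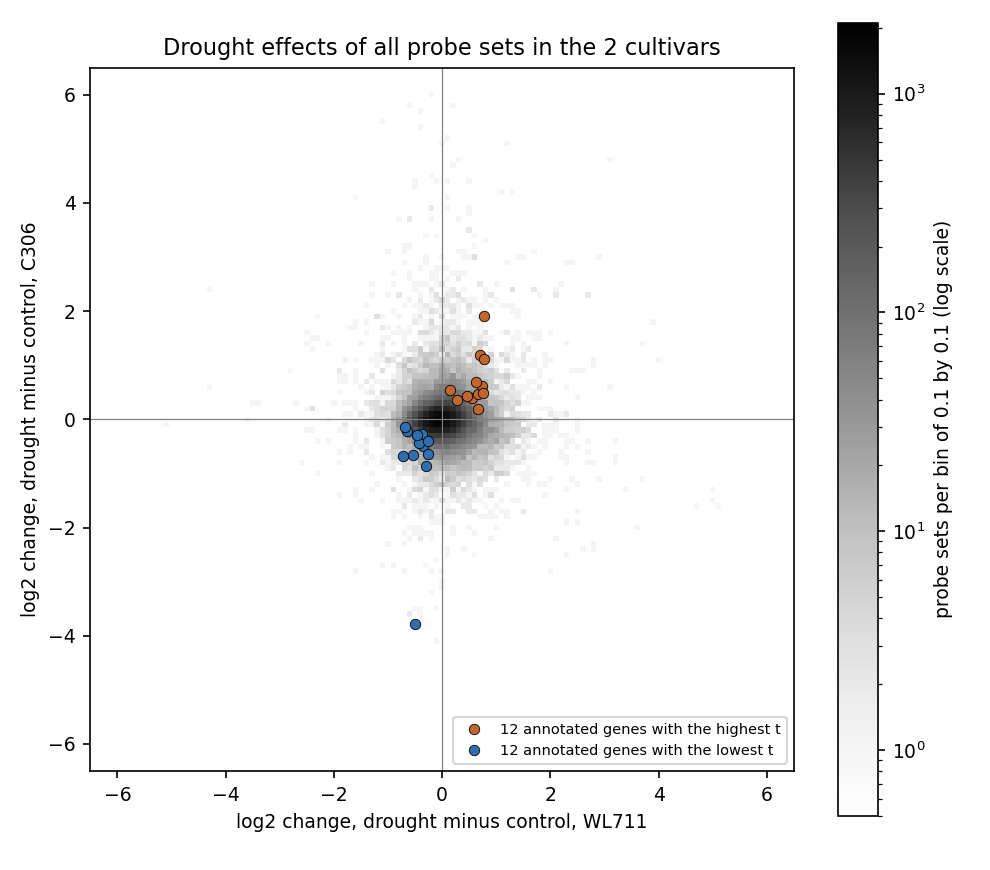
Log2 change, drought minus control, in WL711 (horizontal axis) and in C306 (vertical axis), for all probe sets as counts in bins and for the 12 annotated genes with the highest and the 12 with the lowest moderated t (coloured). The coloured genes were chosen by t, and all 24 have the same sign in both cultivars.

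Among the 771 annotated genes, 61 were higher and 31 lower at an unadjusted p under 0.05, which is 11.9% in all against 9.15% over all probe sets, and 0 passed after adjustment. The 12 with the highest moderated t were all LOC genes, for which the sources used here give no function. Their pooled changes ran from 0.32 to 1.34, their adjusted p (limma) from 0.453 to 0.477, and in 9 of 12 the drought arrays lay above the control arrays in both cultivars. The choice follows t, so those counts describe the list only.

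LOC542858 headed them at 0.94 (SE 0.18), going from -0.68 and -0.23 with water to 0.24 and 0.23 without in WL711, and from -0.73 and -0.30 to 0.91 and 0.43 in C306. Watered and droughted arrays did not overlap in either cultivar. LOC542857, at 0.94 (SE 0.21), went from -0.96 and -0.52 with water to -0.026 and 0.10 without in WL711, and from -0.80 and 0.026 to 1.0 and 0.45 in C306. It was likewise apart in both.

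The highest pooled change of the 12 was 1.34 (SE 0.40) for LOC543090, and it was uneven. Its arrays went from -1.51 and -1.77 with water to -1.59 and -0.13 without in WL711, and from 0.22 and 0.13 to 2.83 and 1.34 in C306. In C306 both drought arrays lay above both control arrays, in WL711 they overlapped, and the difference between the cultivars did not pass (limma adjusted p = 0.675). The others, in order of t, were LOC543101 at 0.48, LOC100037551 at 0.44, LOC543332 at 0.57, LOC606397 at 0.68, LOC542963 at 0.42, LOC543218 at 0.62, LOC543354 at 0.66, LOC542916 at 0.32 and LOC606330 at 0.35.

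The 12 with the lowest t included 4 named genes. They were TaPrx1 at -0.43, Ta20ox1D, for a gibberellin 20-oxidase that makes precursors of this growth hormone, at -0.42, Pgk-1, for phosphoglycerate kinase, at -0.33, and ALP, an avenin-like grain protein gene, at -0.38. Adjusted p (limma) over the 12 ran from 0.453 to 0.493, and in 8 of 12 the drought arrays lay below the control arrays in both cultivars. The LOC genes were LOC100049026 at -0.60, LOC100037562 at -0.70, LOC543106 at -0.33, LOC778419 at -0.58, LOC543396 at -0.44, LOC778407 at -0.45, LOC542796 at -0.44 and LOC780599 at -2.14.

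LOC780599 had by far the largest decrease of the list, with an SE of 0.75. It went from 0.19 and 1.24 with water to 0.78 and -0.36 without in WL711, and from 2.02 and -0.19 to -2.13 and -3.58 in C306. The WL711 arrays overlapped and the C306 arrays were apart, and the pooled value was -1.37 without C306 control replicate 1. Its 4 probe sets pooled to -2.14, -2.01, -1.74 and -0.23, and in C306 they stood at -3.77 to -0.27.

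Genes with several probe sets were looked at as a whole, although such probe sets can share sequence and are not independent. Of 298 annotated genes with 2 or more, 18 had at least 2 at an unadjusted p under 0.05 in the same direction, 12 higher and 6 lower. Over all probe sets, 4.81% were higher and 4.34% lower at that p, and the count of genes describes the list only. Among the 12, LOC543297 also had 1 of its 4 probe sets lower at that p. The genes described here were singled out after values were seen. LOC543167 had all 4 probe sets there, at 0.29 to 0.47, each with the drought arrays above the control arrays in both cultivars. Its probe set with the smallest p went from -0.57 and -0.20 with water to 0.048 and -0.048 without in WL711, and from -0.13 and 0.16 to 0.57 and 0.51 in C306. LOC542989 had 3 of 3, at 0.92 to 0.93, of which 2 were apart from control in both cultivars.

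LOC606366 had 3 of 4 probe sets at an unadjusted p under 0.05, all lower and all apart from control in both cultivars, at -0.78, -0.61 and -0.40. The first of these went from -0.057 and 0.15 with water to -0.70 and -0.91 without in WL711, and from 0.70 and 0.53 to -0.24 and 0.057 in C306. The fourth probe set, the plain one that stood for the gene among the 771, read -0.019.

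Among the 102 named genes, 0 passed, and 11 had an unadjusted p under 0.05, 5 higher and 6 lower, or 10.8% against 9.15% over all probe sets. Their median pooled change was -0.051, against -0.018 over all probe sets. The groups below were put together from gene symbols with earlier results of these data known, and their medians and counts describe them only.

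**Figure D4:**
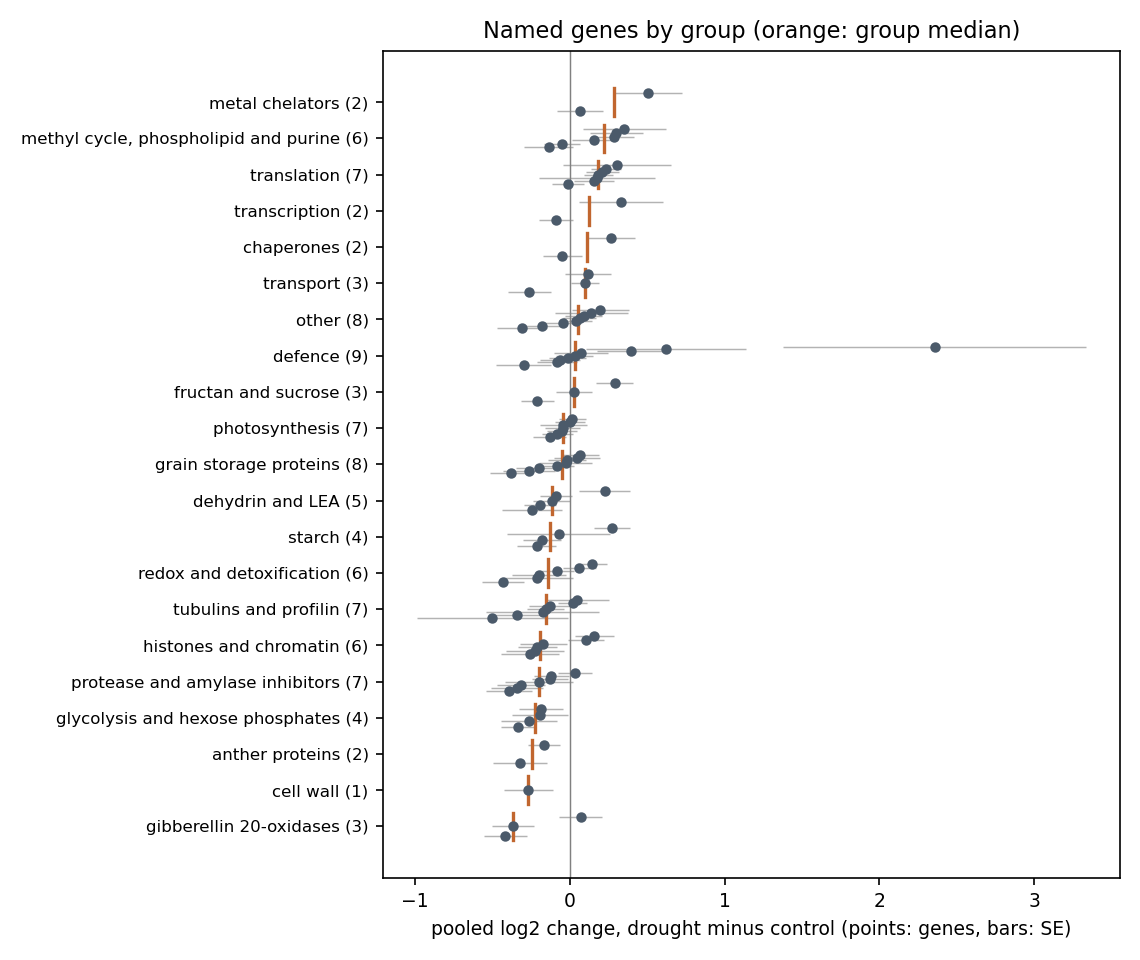
Pooled log2 change (horizontal axis) of the 102 named genes by group (vertical axis), with SE as bars and group medians marked. PR5 of the defence group lies at 2.36, and the other named genes lie between -0.50 and 0.62.

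Of the 5 dehydrin and LEA genes, 0 passed, 1 lay above 0 (45.8% over all probe sets) and 4 below (54.2%), with a median of -0.12. COR410, a dehydrin gene known for its response to cold and drying, went from 0.16 and 0.033 with water to -0.15 and -0.27 without in WL711, and from -0.21 and 0.072 to 0.039 and -0.033 in C306. Watered and droughted arrays were apart in WL711 and overlapped in C306, and the pooled change was -0.12 (SE 0.12, limma adjusted p = 0.763). Rab15, another dehydrin gene, stood at -0.24 (SE 0.20, adjusted p = 0.696). It was -0.071 without WL711 drought replicate 2 and -0.45 without WL711 drought replicate 1. LEA1 stood at 0.23 (SE 0.16), at 0.068 without WL711 drought replicate 1 and at 0.35 without C306 control replicate 2. EMH2 and EM, named for the Em proteins of drying seeds, stood at -0.19 and -0.089. The other 2 probe sets of EMH2 read -0.23, with drought arrays below control arrays in both cultivars, and 0.057. The 95% interval of the pooled change ran from -0.39 to 0.16 for COR410 and from -0.69 to 0.20 for Rab15. A log2 increase of 1 in the measured signal lay outside both. Centred values hold no level, so whether these probe sets detected their transcripts could not be checked.

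Photosynthesis genes lay close to 0 on the probe sets that stood for them. PsbO and PsbP, of the oxygen-evolving complex, stood at 0.0024 (SE 0.099) and -0.050 (SE 0.097), and the other probe set of PsbP read -0.17. The Rieske protein gene petC was at 0.017 and its other probe set at -0.087, phosphoribulokinase (PRK) at -0.080, the chloroplast thioredoxin Trx-M at -0.13 and fructose bisphosphatase (FBP) at -0.046. Of 7 members 0 passed, and the median was -0.046. The 7 include rbcl, described next, which entered with 1 of its 28 probe sets, at -0.041, while others of them lay lower.

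The gene listed as rbcl bears the name of the large subunit of Rubisco, which fixes carbon dioxide. That subunit is encoded in the plastid, while the gene table places this gene on chromosome 2D, so its identity was not settled. The gene was read by 28 probe sets. Of these, 21 lay below 0 and 7 above. Signs were below 0 in both cultivars for 17 (29.9% over all probe sets) and above 0 in both for 3 (23%). At an unadjusted p under 0.05 there were 8 lower (4.34% over all probe sets) and 0 higher (4.81%). The drought arrays lay below the control arrays in both cultivars for 5 (4.8%) and above for 1 (4.36%). The pooled values spanned -0.81 to 0.068 with a median of -0.15, and the one that stood for the gene read -0.041 (SE 0.15). These probe sets may read the same or like transcripts and count as 1 gene.

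The lowest rbcl probe set stood at -0.81 (SE 0.14, limma adjusted p = 0.453), with -0.98 in WL711 and -0.63 in C306. It went from 1.38 and 1.13 with water to 0.16 and 0.38 without in WL711, and from -0.16 and -0.55 to -1.04 and -0.93 in C306. Watered and droughted arrays were apart in both cultivars. The mean of all 28 went from 0.35 and 0.28 to 0.033 and 0.051 in WL711, and from 0.060 and -0.24 to -0.30 and -0.22 in C306, where it overlapped. Of the 3' minus 5' signals given above, that of actin was also lower on drought arrays in WL711 and overlapped in C306, and that of GAPDH overlapped. Their part in these values was not tested.

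**Figure D5:**
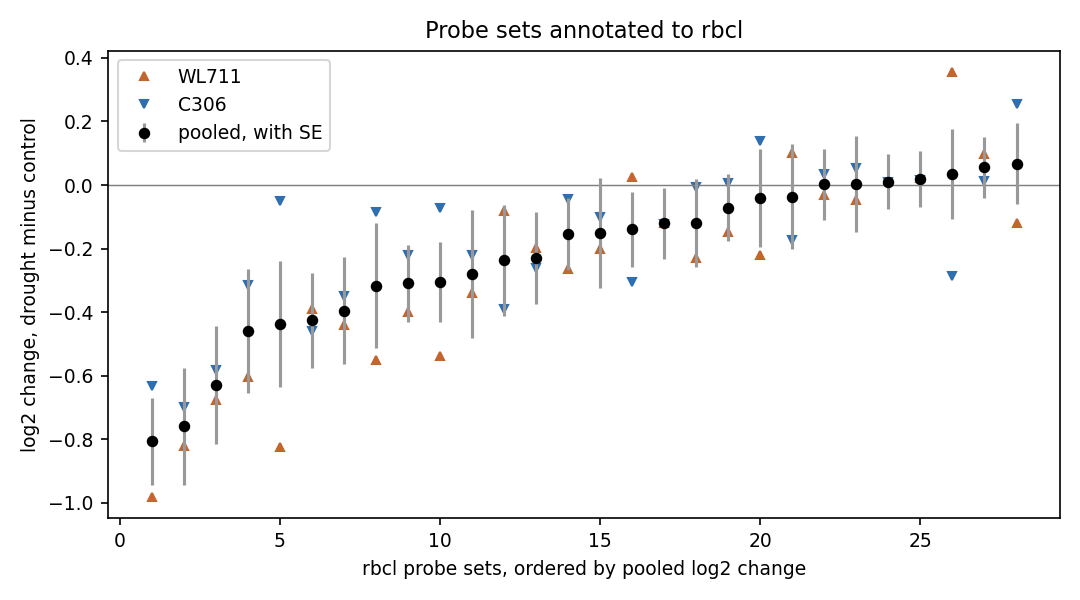
Log2 change, drought minus control (vertical axis), of the 28 probe sets listed as rbcl, ordered by pooled change (horizontal axis), with the pooled value and its SE and the value in each cultivar. The lowest 3 lie between -0.81 and -0.63, and the highest 7 between 0.0028 and 0.068.

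In sugar metabolism all 4 genes of glycolysis and hexose phosphates lay below 0, with a median of -0.23, and 0 passed. Pgk-1 went from 0.57 and 0.52 with water to 0.36 and 0.19 without in WL711, and from -0.19 and -0.21 to -0.78 and -0.40 in C306. The drought arrays lay below the control arrays in both cultivars, and the pooled change was -0.33 (SE 0.11, unadjusted p = 0.0171, limma adjusted p = 0.490). PFK, for phosphofructokinase, stood at -0.26, and TaPMM and GAPN at -0.19 and -0.19, with opposite signs in the cultivars. The other probe set of TaPMM read 0.15.

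Of the 4 starch genes 1 lay above 0, and 0 passed. It was AGP-S, named for the small subunit of ADP-glucose pyrophosphorylase, which makes the glucose donor for starch, at 0.27 (SE 0.12, limma adjusted p = 0.543). Its arrays went from -0.21 and -0.21 with water to 0.095 and -0.014 without in WL711, and from -0.43 and 0.014 to 0.036 and 0.14 in C306. They were apart in both cultivars. AGA.1 stood at -0.21 and its other probe set at 0.044, the granule-bound starch synthase gene GBSS-I at -0.18, or -0.27 to -0.081 with an array left out, and the beta-amylase gene BMY1 at -0.071 (SE 0.33). The fructan exohydrolase genes 1-FEH and 6-FEH, which release fructose from stored fructan, stood at 0.29 (SE 0.12, limma adjusted p = 0.529) and -0.21 (SE 0.11). The other 6-FEH probe sets went the other way and differed in sign between cultivars, pooling to 0.77 from 2.20 in WL711 and -0.65 in C306, and to 0.36 from 1.93 and -1.21. IVR1, an invertase gene by its symbol, was at 0.027.

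Redox genes split, with 2 of 6 above 0 and 4 below, 0 past the threshold, and a median of -0.14. TaPrx1 went from 0.55 and 0.65 with water to 0.27 and 0.22 without in WL711, and from -0.22 and -0.34 to -1.07 and -0.49 in C306. The groups did not overlap within a cultivar, and the pooled change was -0.43 (SE 0.14, unadjusted p = 0.0115, limma adjusted p = 0.477). All 4 of its probe sets lay below 0, from -0.43 to -0.074. CAT1, a catalase gene, stood at 0.14 (SE 0.097) with drought arrays above control arrays in both cultivars, and GSTZ1, for a glutathione transferase, at 0.063. The other probe set of CAT1 read 0.029, and those of GSTZ1 read 0.17 and 0.30. For the last, drought arrays also lay above control arrays in both cultivars.

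Of the 3 gibberellin 20-oxidase genes, 0 passed. Ta20ox1D went from 0.67 and 0.80 with water to 0.13 and -0.038 without in WL711, and from 0.038 and -0.14 to -0.31 and -0.083 in C306. The WL711 arrays were apart and the C306 arrays overlapped, for a pooled change of -0.42 (SE 0.14, unadjusted p = 0.0151, limma adjusted p = 0.490). Its other probe set read -0.29. Ta20ox1B stood at -0.37 (SE 0.14, adjusted p = 0.506), with -0.62 in WL711 and -0.11 in C306, and Ta20ox1A at 0.071. The difference between cultivars did not pass for Ta20ox1D or Ta20ox1B (limma adjusted p = 0.481 and 0.525).

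Among the genes of translation, 6 of 7 lay above 0 with a median of 0.18, and 0 passed. With arrays shifted to one median 7 lay above 0, and after a further quantile normalization 5 did. The cap-binding protein genes NCBP and eIF4E, whose products bind the cap of messenger RNA, stood at 0.24 (SE 0.098, unadjusted p = 0.0391, limma adjusted p = 0.534) and 0.21 (SE 0.11). NCBP went from -0.032 and -0.087 with water to 0.17 and 0.17 without in WL711, and from -0.28 and -0.041 to 0.13 and 0.032 in C306. NCBP, eIF4E and eIF-2-beta, at 0.18, had drought arrays above control arrays in both cultivars, or 3 of 7 genes against 4.36% of all probe sets. RPL9, a ribosomal protein gene, pooled to 0.30 (SE 0.35) from 1.08 in WL711 and -0.47 in C306, and RPS29 to 0.18 from 0.75 and -0.39.

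Genes of growing and dividing cells did not pass. Of 7 tubulin and profilin genes 5 lay below 0, and 6 after a further quantile normalization, with a median of -0.15. The alpha-tubulin gene TUBA was at -0.34 (SE 0.15, limma adjusted p = 0.547), with -0.41 in WL711 and -0.27 in C306, while its other probe set pooled to 0.049. The beta-tubulin gene tubb2 pooled to -0.50 (SE 0.49) from 0.42 in WL711 and -1.42 in C306. Of 6 histone and chromatin genes 4 lay below 0, with a median of -0.19. All 7 probe sets of the histone gene wcH2B-8 lay below 0, from -0.26 to -0.054, with 4 of 7 below 0 in both cultivars. The 6 probe sets of H2A-9 pooled to -0.40 to -0.099 but had opposite signs, at 0.0091 to 0.66 in WL711 and -1.11 to -0.40 in C306. XTH, for an enzyme that remodels xyloglucan of the cell wall, stood at -0.27 (SE 0.16), and at -0.39 to -0.16 with an array left out.

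Defence genes held the largest pooled value of any named gene. PR5, for a thaumatin-like protein, went from 0.21 and -1.05 with water to 4.59 and -1.06 without in WL711, and from -0.21 and -1.15 to 1.90 and 1.80 in C306. A single WL711 drought array was high, so the WL711 groups overlapped, while the C306 groups did not. The pooled change was 2.36 (SE 0.98, unadjusted p = 0.0391, limma adjusted p = 0.534), and 1.26 without WL711 drought replicate 1. The xylanase inhibitor gene XIP-I stood at 0.40 (SE 0.22), and its other probe set at 0.39. The beta-glucosidase gene TaGlu1a stood at 0.62 (SE 0.52), and WGA2, a gene of wheat germ agglutinin, at -0.30. The thionin genes THI1.1, THI1.2, THI1.3 and TTHV lay between -0.081 and 0.074 on the probe sets that stood for them, while the other one of THI1.3 read -0.32 and that of THI1.1 -0.23. Of the 9 genes 5 lay above 0, the median was 0.031, and 0 passed.

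Inhibitor and grain protein genes, which belong mainly to the seed, lay mostly below 0, and 0 passed. Of 7 genes for protease and amylase inhibitors 6 lay below 0, with a median of -0.20, and the lowest was one of 2 genes listed as ATI at -0.39 (SE 0.15, limma adjusted p = 0.510). Its other probe sets read 0.052 and 0.0097. Of 8 grain storage protein genes 6 lay below 0, and 4 after a further quantile normalization, with a median of -0.053. ALP went from 0.72 and 0.23 with water to 0.083 and -0.059 without in WL711, and from -0.15 and 0.059 to -0.23 and -0.44 in C306. Its groups were apart in both cultivars, while its other 3 probe sets read 0.015 to 0.036.

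The remaining groups were small, and 0 of their members passed. DMAS1, for an enzyme of phytosiderophore synthesis, stood at 0.51 (SE 0.22, limma adjusted p = 0.543), with 0.11 in WL711 and 0.90 in C306, and TaPCS1, for phytochelatin synthase, at 0.069. The other probe sets of DMAS1 read 0.15 and 0.34. SAHH, for S-adenosylhomocysteine hydrolase, pooled to 0.35 (SE 0.27) from 0.92 and -0.21. APT1, for adenine phosphoribosyltransferase, stood at 0.28. SAHH had opposite signs in the cultivars. The small heat shock protein gene hsp16.9A was at -0.049 and FKBP70, for a peptidyl-prolyl isomerase, at 0.27. The plasma membrane proton pump gene ha1 was at 0.10 (SE 0.090), with drought arrays above control arrays in both cultivars, and the malate transporter gene TaALMT1 at -0.26. The zinc finger gene WZF1 pooled to 0.33 (SE 0.27) from 0.95 in WL711 and -0.29 in C306. The anther genes raftin1a and raftin1b stood at -0.17 and -0.32, and their other probe sets at 0.088 and 0.046.

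The drought effects of the cultivars were also averaged in a fit of 4 group means. That fit takes a difference between these effects out of the error. With it 5 probe sets passed (0.00817%), 3 higher and 2 lower, none with a gene. Each was larger in one cultivar than in the other. The one with the smallest adjusted p averaged 1.98 (limma adjusted p = 0.00699) from 0.075 in WL711 and 3.88 in C306. Its arrays went from -0.47 and -0.61 with water to -0.42 and -0.51 without in WL711, and from 0.42 and 0.87 to 4.47 and 4.58 in C306. The WL711 arrays overlapped. The other higher ones averaged 1.97 (adjusted p = 0.0159) from 0.47 and 3.47, and 1.46 (adjusted p = 0.0361) from 0.12 and 2.80.

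Both lower ones were larger in WL711. The largest decrease named above averaged -2.60 (limma adjusted p = 0.00710). The other averaged -1.36 (adjusted p = 0.0361) from -2.28 and -0.44, and it went from 3.55 and 3.44 with water to 1.21 and 1.23 without in WL711, and from -1.21 and -1.63 to -1.99 and -1.73 in C306. It was apart from control in both cultivars, as was the second of the higher ones. The difference between cultivars passed for 4 of the 5, at an adjusted p of 0.00322 to 0.0287, and was at 0.0770 for this one.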

How the data were processed

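Leaf RNA of 8 wheat samples was hybridised to Affymetrix arrays, 2 biological replicates in each of 4 groups. The authors deposited log2 values made with RMA, per the submitters' processing notes, with no version given there. Each probe set's median over the arrays was 0 within 5e-07, so log2 values had been centred. Gene names came from the platform annotation and, for 770 of 771 genes, the gene table of IWGSC CS RefSeq v2.1. Members and gene lists were chosen with earlier results of these data known.

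The pooled effect was fitted with limma 3.58.1 in R 4.3.3 (lmFit with drought and cultivar as additive terms, eBayes without trend, 5 residual and 4.08 prior degrees of freedom). P-values were 2-sided and adjusted by Benjamini-Hochberg over 61179 probe sets, with a threshold of 0.05. Effects per cultivar, their average and their difference came from a fit of 4 group means. Effects were tested against the moderated spread between these samples. In the pooled fit that spread includes a drought effect that differs between cultivars. The number of arrays limits the precision, and levels cannot be compared between probe sets. The fit was run on simulated data with independent noise and the same added change in both cultivars. Those data held no drought effect that differs between cultivars, so the run checks the code only. SE is the moderated standard error.

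The rule for named genes took the 12 highest and 12 lowest annotated genes, by moderated t where none passed, up to 2 genes for each of 24 text patterns, and the 4 smallest p. The gene table held no descriptions, and 12 patterns matched no gene. Over the other 12, 0 members passed, and list medians ran from -0.37 (gibberellin) to 1.22 (defence, PR5 and THI1.3). All other genes and probe sets were named after values were seen. Same-numbered replicates correlated at -0.093 to 0.11 in their deviations from group means, and the main fit did not use the numbers as pairs. Such correlations cannot show whether same-numbered samples shared a tray or day, and the labels used here do not say. Alternatives covered blocks, scaling, moderation, weights, probe set filters and each array left out.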

Additional observations from a re-analysis of the deposited data

Results flagged for a closer look

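By limma's test of the difference, the drought effect differed between the cultivars for 3 probe sets with a gene, and the cultivars moved in opposite directions in all 3. LOC543150 pooled to -0.92 (SE 1.18, adjusted p = 0.811) from -4.27 (WL711) and 2.43 (C306). The difference of the effects, C306 minus WL711, was 6.70 (SE 0.80, limma adjusted p = 0.0485). LOC543248 pooled to 1.05 (SE 0.70, adjusted p = 0.644) from -1.02 and 3.12, with a difference of 4.14 (SE 0.24, limma adjusted p = 0.00170). LOC543440 pooled to 0.34 (SE 0.39, adjusted p = 0.788) from 1.45 and -0.78, with a difference of -2.23 (SE 0.24, limma adjusted p = 0.0287). These genes were singled out after values were seen. A choice by a large difference favours opposite directions, so those directions are no finding.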

How the results depend on the processing

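The count of probe sets past the threshold was 0 in 20 of 21 alternatives, including each array left out, and 5 with the average of the within-cultivar effects. In the 20, the smallest adjusted p ran from 0.0519 (hybridisation controls as a block) to 0.973 (no cultivar block), and was 0.0689 with eBayes trend and robust. At an unadjusted p under 0.05 there were 4076 to 7242 probe sets with an array left out and 2199 to 6770 otherwise. The replicate block gave 0 calls with pairs within cultivars (4387 at an unadjusted p under 0.05) and 0 with numbers shared across cultivars (5208), and changed no other call. Pooled changes of at least 1 numbered 273 to 593 with an array left out. Of 45 genes and probe sets followed over the alternatives, 0 of 883 values passed and 41 kept their sign. The exceptions lay near 0: rbcl read 0.044 with hybridisation controls as a block and -0.19 to 0.044 with an array left out, hsp16.9A -0.11 to 0.060, PRO1 -0.013 to 0.048 and THI1.3 -0.090 to 0.24. The cause was not tested. A filter on signal level was not run, because centred values hold no level.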
